A study of Mus musculus with 10 samples.

Results

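The 10 genes described here encode subunits of the BAF chromatin remodelling complex, and they were taken by name from a fixed list that holds embryonic and somatic alternatives of the same position in the complex: Smarca4, Smarca2, Smarcc1, Smarcc2, Smarcd1, Smarcd3, Arid1a, Arid1b, Actl6a and Dpf2. All 10 were listed among the 18901 genes of the deposited table and all 10 passed the filter on low values that left 17075 genes. RNA was sequenced from 5 mouse lines of a cross of mf1 and 129, each with 2 libraries. MEF, the Oct4-GFP embryonic fibroblasts that the other lines came from, were taken at passages 2 and 4 and grown in DMEM with 10% FCS. A pre-iPS line, in which reprogramming had stopped partway without reactivation of Oct4 or silencing of the transgenes, an iPS line made without the factor ('control') and 2 iPS clones called 'rNetrin-1-derived', here clones 1 and 2, had been obtained by retroviral infection of such MEF with Oct4, Sox2, Klf4 and c-Myc, and were taken at passages 5 and 25. The rNetrin-1-derived clones arose from cells that had also received recombinant Netrin-1, a secreted guidance molecule, during reprogramming. The iPS cells were grown in KSR and LIF medium. For pre-iPS and iPS cells the study's methods allow this medium with or without the 2i components. They also allow gelatin or irradiated MEF as the support, without saying which was used here. Of the 4 derived lines only the rNetrin-1-derived ones are labelled as clones. The 2 libraries of a line were passages of that line. The tests below thus measured the spread between passages, not between independently derived clones.

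BAF complexes, the mammalian SWI/SNF remodellers, use the energy of ATP to slide or evict nucleosomes and so open DNA to transcription factors. Each complex carries 1 of the alternative ATPases SMARCA4 and SMARCA2, a scaffold built of SMARCC and SMARCD subunits, an ARID1 subunit that marks the canonical assembly, and accessory subunits. Embryonic stem cells are known for an assembly rich in SMARCA4, SMARCC1, SMARCD1 and ARID1A, and differentiated cells for one that also takes up SMARCA2, SMARCC2, SMARCD3 or ARID1B. All values below are normalised read counts, which are counts that were brought to a common library size, and they follow RNA only.

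Depth was 38110410 to 52946856 reads on genes per library, and the member with the fewest reads, Smarcd3, had normalised read counts of 140 or more in every library, so counting error was small for all 10. The 100 genes with the most reads took from 25.4 to 25.9% of them in MEF, against 18 to 19.1% elsewhere. The summed level of 10 fibroblast markers was 3946837 to 4126713 in MEF, 144423 to 152378 in pre-iPS and 84675 to 130994 in iPS. That of 8 pluripotency markers was 186 to 206, 19245 to 20375 and 35432 to 83400, so both lists set MEF apart from iPS. Of the fibroblast markers only Fn1 was above the iPS range in pre-iPS (118365 to 130256 against 62001 to 101758). The other fibroblast markers of pre-iPS overlapped the iPS range or lay below it. The 8 genes of dividing cells summed to 38055 to 38334 in MEF, 61204 to 77114 in pre-iPS and 80814 to 101899 in iPS. The 10 macrophage markers summed to 15336 to 15491 in MEF, 5822 to 6621 in pre-iPS and 818 to 2558 in iPS, with Emr1 and Tyrobp at 0 in pre-iPS. The pre-iPS sum was mostly Laptm5 (4711 to 4719, against 1425 to 1457 in MEF) and Cd68 (853 to 1565, against 715 to 767), while Lyz2, C1qa, Ptprc and Fcer1g were under 10 there. The part of these cell-type and growth differences in the results on the BAF subunits was not tested, and in such bulk RNA fewer cells of a type and less RNA per cell cannot be told apart.

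Per kilobase of its longest annotated transcript, the most abundant member in iPS was Actl6a with a mean of 3140, followed by Smarca4 with 2400 and Smarcc1 with 2290. Such a scale sets different genes side by side, but the order depends on the length taken for each gene. The longest transcript of Actl6a has 2010 bases and the union of its exons 3886, against 6376 and 6475 for Smarca4. The somatic forms were far lower in iPS on that scale, with 737 for Smarcc2, 374 for Smarca2, 227 for Arid1b and 46.7 for Smarcd3. In MEF the order differed: Smarcc2 stood first with 2440 per kilobase, above Smarca4 with 2090, Smarcc1 with 1480 and Dpf2 with 1360. With this length the scaffold gene that ranked below 6 other members in iPS headed the list in fibroblasts. Its first place there rests on that choice, as the union of its exons has 5552 bases and its longest transcript 4562.

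**Figure D1:**
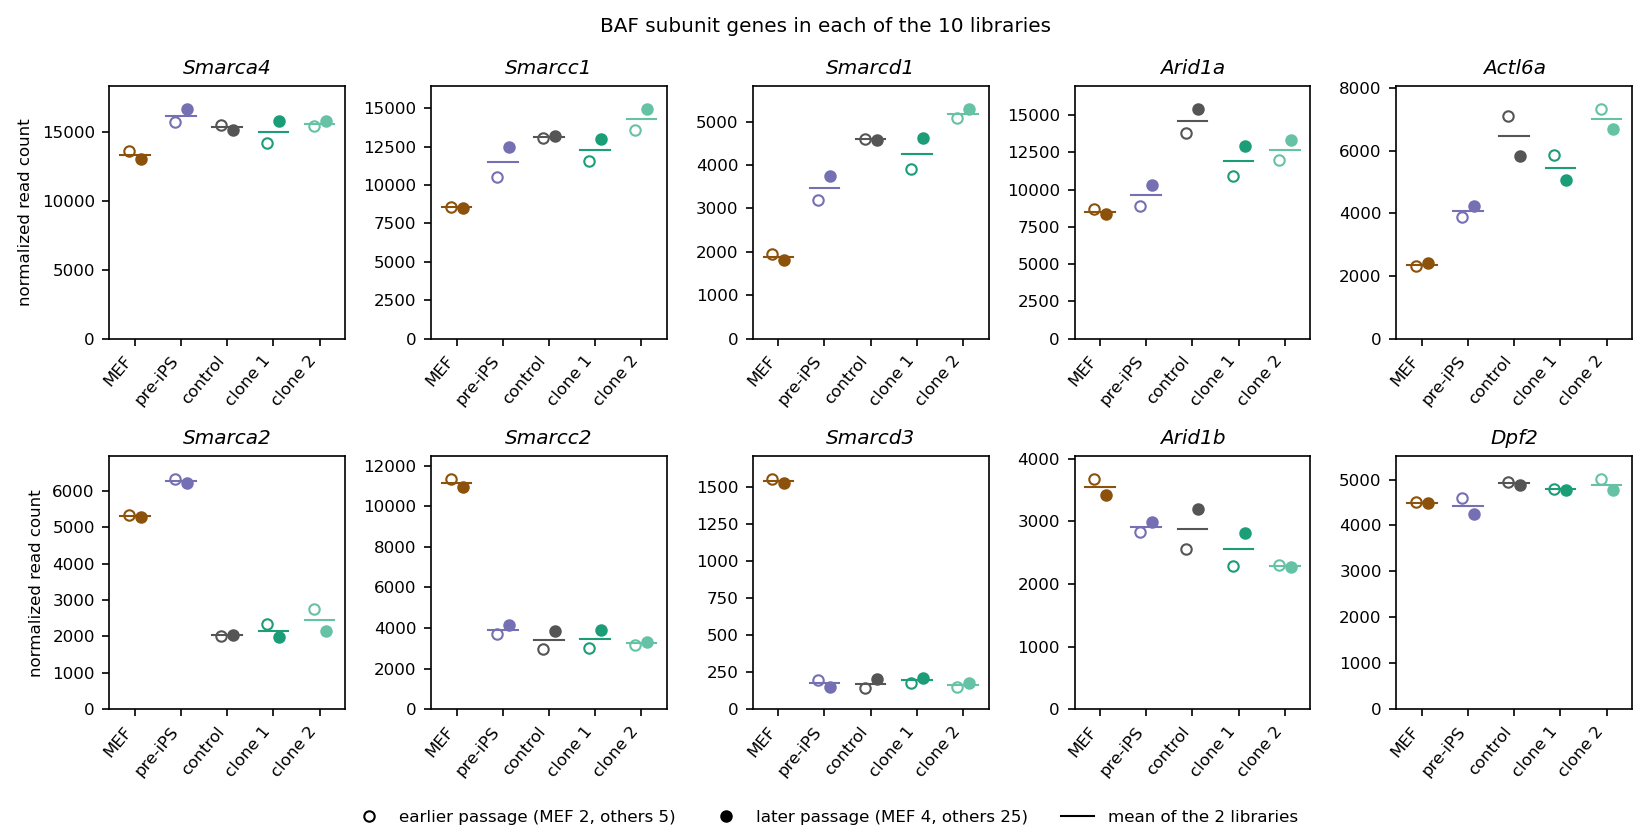
Normalised read count of each BAF subunit gene in the 10 libraries, in 1 panel per gene with the lines on the x axis and each y axis starting at 0. Open points are the earlier and filled points the later passage, and bars are the mean of the 2 libraries of a line. Smarcc2 and Smarcd3 are high in MEF only, Smarca2 is high in MEF and pre-iPS, and Actl6a and Smarcd1 are lowest in MEF.

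At least a 2-fold difference between MEF and iPS was seen for 5 members, and the stretch before their transcription start is shown for these: Smarca2, Smarcc2 and Smarcd3, which were higher in MEF, and Smarcd1 and Actl6a, which were lower. The sequences are from RefSeq on GRCm38.p6, run 5′ to 3′ on the strand of the gene, and cover the part of the 250 bases before the RefSeq start that lies in no annotated exon. Capitals mark the GC box, searched as GGGCGG on either strand (CCGCCC on the other), the letters that Sp-family factors are known to bind.

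Smarca2, chr19:26604910-26605049, plus strand: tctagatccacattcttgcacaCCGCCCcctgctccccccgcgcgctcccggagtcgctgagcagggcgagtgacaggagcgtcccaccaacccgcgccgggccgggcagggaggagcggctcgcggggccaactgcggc
Smarcc2, chr10:128458986-128459235, plus strand: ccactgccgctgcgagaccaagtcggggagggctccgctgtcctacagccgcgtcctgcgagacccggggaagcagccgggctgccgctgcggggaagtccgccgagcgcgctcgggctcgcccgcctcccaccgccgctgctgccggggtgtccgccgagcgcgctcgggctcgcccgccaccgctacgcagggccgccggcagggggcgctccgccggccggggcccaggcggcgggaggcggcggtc
Smarcd3, chr5:24602013-24602252, minus strand: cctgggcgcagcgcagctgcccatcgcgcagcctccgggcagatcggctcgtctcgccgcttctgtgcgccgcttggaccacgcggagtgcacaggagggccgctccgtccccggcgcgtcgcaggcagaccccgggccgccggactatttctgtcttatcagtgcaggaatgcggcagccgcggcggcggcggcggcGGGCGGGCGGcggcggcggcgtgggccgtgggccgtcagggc
Smarcd1, chr15:99702037-99702128, plus strand: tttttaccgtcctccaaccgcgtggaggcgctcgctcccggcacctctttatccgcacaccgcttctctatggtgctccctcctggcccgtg
Actl6a, chr3:32708296-32708506, plus strand: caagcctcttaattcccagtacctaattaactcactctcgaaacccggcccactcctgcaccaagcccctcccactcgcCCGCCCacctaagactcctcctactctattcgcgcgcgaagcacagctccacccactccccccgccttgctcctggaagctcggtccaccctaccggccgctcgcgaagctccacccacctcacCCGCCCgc

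In the full 250 bases, 9 of the 11 windows of the 10 members (Arid1a has 2 starts) held a GC box, where 32.7% of 32851 RefSeq windows of this length did. Smarca2 and Smarcd3 held 2 each, Actl6a 3, Smarcd1 1 and Smarcc2 none, so the genes higher and lower in MEF were not set apart by it. The CCAAT box, searched as CCAAT or ATTGG, was in 1 member window (Dpf2) and in 33.8% of all windows, and the TATA box, searched as TATAAA or TTTATA, was in none of them and in 12.4% of all. Every member window held at least 17 CpG dinucleotides, where the median over all windows was 6, and Smarcc2 held the most with 40. These matches describe the letters only. The RefSeq start of Smarcd3 is the inner of 2 annotated starts. Those of Actl6a (32708546, gene from 32706298) and Smarcc1 (110132024, gene from 110117708) also lie inside the annotated gene. So do those of Arid1b, Smarcd1, Smarca2 and Dpf2 and 1 of the 2 starts of Arid1a. The counts do not separate transcripts from different starts, nor the long from the short annotated transcripts of Smarca2.

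MEF were compared with the 3 iPS lines to see how the subunits differ between the somatic cells and the reprogrammed ones. Of the 10 members 9 changed (limma, Benjamini-Hochberg adjusted p under 0.05 over all genes tested): all 4 somatic forms were higher in MEF and the 4 embryonic forms and Actl6a were lower. Of all genes, 37.4% were called higher and 41.9% lower in this comparison, and 48.2% differed at least 2-fold, against 5 of the 10 members. The MEF and iPS libraries did not overlap for any of the 10, which held for 80% of all genes. The median absolute log2 fold change was 0.95 over the members and 0.96 over all genes, so as a group the members were not set apart by the size of their change. The median log2 fold change of all genes was -0.087.

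Of the ATPases, Smarca2 had normalised read counts of 5347 and 5272 in MEF and a lowest, median and highest of 1974, 2093 and 2753 in iPS. Every MEF library was thus far above every iPS library, by 2.42-fold (log2 fold change 1.27, SE 0.10, adjusted p = 3.88e-06). Smarca4, the ATPase that pluripotent cells are known to depend on, was at 13633 and 13022 in MEF and at 14197, 15456 and 15803 in iPS. It was 1.15-fold lower in MEF (log2 fold change -0.20, SE 0.06, adjusted p = 0.0152). That small difference was no longer called without either MEF library, with an adjusted p of 0.0539 without passage 2 and 0.143 without passage 4. With quantile normalisation the difference was larger (log2 fold change -0.64, adjusted p = 3.03e-05).

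Both SMARCC scaffold genes moved, in opposite directions. Smarcc2 was at 11314 and 10942 in MEF and at 2963, 3237 and 3879 in iPS, which is 3.33-fold higher in MEF (log2 fold change 1.74, SE 0.12, adjusted p = 1.98e-06). Smarcc1 was at 8591 and 8518 in MEF and at 11553, 13131 and 14962 in iPS. It was 1.54-fold lower in MEF (log2 fold change -0.62, SE 0.08, adjusted p = 9.98e-05, or -0.98 and 1.75e-05 with quantile normalisation), with no overlap between the libraries.

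The SMARCD genes, whose products link the core to transcription factors, gave the widest contrast among the members. Smarcd3, the form best known from heart and muscle, was at 1549 and 1527 in MEF and at 140, 178 and 212 in iPS. This was 8.77-fold higher in MEF (log2 fold change 3.13, SE 0.18, adjusted p = 6.43e-07). Smarcd1 was at 1959 and 1820 in MEF and at 3900, 4612 and 5293 in iPS, and was 2.47-fold lower in MEF (log2 fold change -1.30, SE 0.09, adjusted p = 1.46e-06).

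The ARID1 genes, whose products bind DNA and hold the canonical complex together, had smaller fold changes. Arid1a was at 8675 and 8348 in MEF and at 10902, 13140 and 15419 in iPS, 1.53-fold lower in MEF (log2 fold change -0.61, SE 0.09, adjusted p = 0.000266, or -0.97 and 4.5e-05 with quantile normalisation). Arid1b was at 3672 and 3421 in MEF and at 2266, 2433 and 3199 in iPS, 1.39-fold higher in MEF (log2 fold change 0.47, SE 0.11, adjusted p = 0.00278). With quantile normalisation the log2 fold change of Arid1b was 0.23 and its adjusted p 0.108, so this call rested on the scaling.

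Actl6a encodes an actin-related subunit that is known from dividing and stem cells and gives way to Actl6b in neurons. It was at 2300 and 2420 in MEF and at 5044, 6278 and 7325 in iPS, and so was 2.65-fold lower in MEF (log2 fold change -1.41, SE 0.09, adjusted p = 1.49e-06). Dpf2, a subunit with fingers that read acetylated histone tails, was at 4504 and 4495 in MEF and at 4769, 4841 and 5003 in iPS. Its MEF libraries were both below the iPS libraries, by a log2 fold change of -0.11 (95% interval -0.24 to 0.02, adjusted p = 0.0947), which missed the threshold. It was called lower with quantile normalisation (log2 fold change -0.38, adjusted p = 0.000187).

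**Figure D2:**
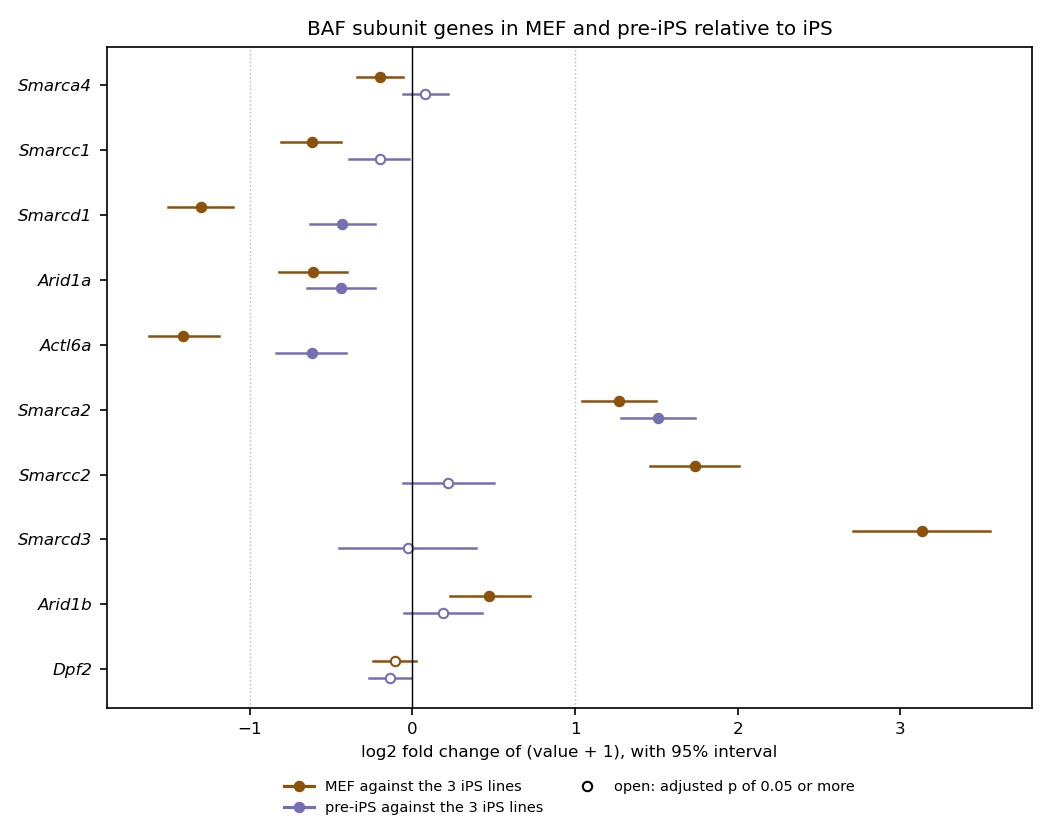
Log2 fold change of each BAF subunit gene in MEF (brown) and pre-iPS (violet) against the 3 iPS lines on the x axis, with 95% intervals as lines and the genes as rows. Filled points passed an adjusted p of 0.05, and dotted lines mark a 2-fold difference. Smarcd3 and Smarcc2 lie far to the right in MEF (3.13 and 1.74) and near 0 in pre-iPS, while Smarca2 lies to the right in both (1.27 and 1.51).

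The pre-iPS line was set beside iPS and beside MEF to see which subunits of a partially reprogrammed line stood at the iPS level. Against iPS 4 members changed: Smarca2 was higher, and Smarcd1, Arid1a and Actl6a were lower. Genes called higher made up 18.7% of all, those called lower 20.8% and those at least 2-fold different 16.3%, the last met by Smarca2 alone among the members. The libraries did not overlap for 5 of the 10 members and for 41.8% of all genes. Since this comparison and that of MEF share the 6 iPS libraries, the values of each are given side by side and not correlated. Against MEF, 4 members were higher and 2 lower in pre-iPS, where 36.4% and 34.2% of all genes were, and 2 members against 43.2% of all genes differed at least 2-fold.

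Smarca2 differed most from iPS among the members in pre-iPS. It was at 6313 and 6217 in pre-iPS, above every iPS library and also above the 5347 and 5272 of MEF. The difference from iPS was 2.85-fold (log2 fold change 1.51, SE 0.10, adjusted p = 1.62e-05), and that from MEF was a log2 fold change of 0.24 (95% interval -0.04 to 0.52, adjusted p = 0.111). A fit on the MEF and pre-iPS libraries alone called the difference from MEF (adjusted p = 0.0103), as did quantile normalisation (0.00324). The fibroblast marker sum of pre-iPS was far below that of MEF, as given above, and its relation to the Smarca2 level was not tested.

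Smarcc2 and Smarcd3, the members most abundant in MEF relative to iPS, were near the iPS level in pre-iPS. Smarcd3 was at 197 and 149, inside the 140 to 212 of iPS, with a log2 fold change of -0.03 against iPS (95% interval -0.45 to 0.39, adjusted p = 0.919) and of -3.16 against MEF (SE 0.22, adjusted p = 3.33e-06). The sign of its difference from iPS turned with the scaling, to 0.19 with quantile normalisation. Smarcc2 was at 3697 and 4122 and overlapped the iPS libraries. Its log2 fold change was 0.22 against iPS (95% interval -0.06 to 0.50, adjusted p = 0.178, or 0.0496 with the passage as a block) and -1.51 against MEF (SE 0.15, adjusted p = 2.57e-05).

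Actl6a and Smarcd1 lay between MEF and iPS. Actl6a was at 3894 and 4231 in pre-iPS, 1.54-fold below iPS (log2 fold change -0.62, SE 0.09, adjusted p = 0.00125) and 1.72-fold above MEF (log2 fold change 0.78, SE 0.12, adjusted p = 0.000308). Smarcd1 was at 3190 and 3749, 1.35-fold below iPS (log2 fold change -0.43, SE 0.09, adjusted p = 0.00524) and 1.83-fold above MEF (log2 fold change 0.87, SE 0.11, adjusted p = 9.59e-05). Both genes were thus lower than in every iPS library and higher than in each MEF library. The summed level of the markers of dividing cells took the same order, from MEF through pre-iPS to iPS.

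Arid1a stayed low in pre-iPS, at 8932 and 10305, where the lowest iPS library had 10902. It was 1.35-fold below iPS (log2 fold change -0.44, SE 0.09, adjusted p = 0.00625), and its log2 fold change against MEF was 0.17 (95% interval -0.08 to 0.43, adjusted p = 0.200, or 0.00878 with quantile normalisation). Smarcc1 was at 10500 and 12467, with a log2 fold change of -0.20 against iPS (adjusted p = 0.0759, or 0.0271 with the passage as a block) and 0.42 against MEF (SE 0.10, adjusted p = 0.00471, or 0.77 and 0.000413 with quantile normalisation). The value against iPS rested on single pre-iPS libraries, being -0.33 (adjusted p = 0.0312) without passage 25 and -0.08 (adjusted p = 0.549) without passage 5. Smarca4 was at 15714 and 16671, 1.21-fold above MEF (adjusted p = 0.00912, but 0.0533 without pre-iPS passage 25 and 0.0744 without MEF passage 4, and a log2 fold change of 0.73 and an adjusted p of 6.97e-05 with quantile normalisation) and not separated from iPS (log2 fold change 0.08, 95% interval -0.06 to 0.22, adjusted p = 0.331). Arid1b, at 2832 and 2994, and Dpf2, at 4599 and 4251, missed the threshold against either, though a fit of the MEF and pre-iPS libraries alone called Arid1b lower than in MEF (adjusted p = 0.0197). Dpf2 was called lower than in iPS by DESeq2 (adjusted p = 0.0426) and with quantile normalisation (log2 fold change -0.20, adjusted p = 0.0193). Without the pre-iPS library of passage 5, 2 of the 4 members called against iPS were called, and the calls of Smarcd1 (adjusted p = 0.0632) and Arid1a (0.0738) were lost.

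The balance between an embryonic form and its somatic alternative was measured within each library, as the ratio of their levels per kilobase of longest transcript, since such a ratio does not depend on library size. In MEF all 4 ratios were lower than in iPS, with every MEF library below all 6 iPS libraries. That separation follows from the separation of the single genes in opposite directions and adds no evidence to it, so the ratios in MEF are given as a description of size. Smarcd1 made up 58.4 ± 1.02% (mean ± s.d., n = 2) of the Smarcd1 and Smarcd3 signal in MEF and 96.8 ± 0.649% (n = 6) in iPS, a difference of -4.43 in the log2 ratio. Smarcc1 was the minor form in MEF, with 37.8 ± 0.416% of the Smarcc pair, and the major form in iPS, with 75.7 ± 2.44%, a difference of -2.36. Smarca4 made up 70 ± 0.47% of the ATPase pair in MEF and 86.5 ± 1.72% in iPS, a difference of -1.47. Arid1a made up 76.9 ± 0.404% of its pair in MEF and 87.5 ± 0.99% in iPS, a difference of -1.08. These shares, and those of pre-iPS below, depend on the length taken for each gene, which the s.d. does not cover. For Smarca2 the longest transcript has 5921 bases and the union of exons 14269. The differences in log2 ratio between lines do not depend on the length.

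In pre-iPS the pairs parted. The permutation tests here treat libraries as independent, although they were passages of 1 pre-iPS line and 3 iPS lines. The Smarca4 share was 70.6 ± 1.09%, close to the 70% of MEF, and its log2 ratio differed from that of iPS by -1.43 (exact two-sided permutation p = 0.0357, the smallest that 2 libraries against 6 can give, adjusted over the pairs 0.0476). For this pair the separation follows from that of Smarca2 alone, given above, and the p adds no evidence to it. The Smarcd1 share was 95.8 ± 1.25% and its libraries overlapped those of iPS (difference -0.40, exact permutation p = 0.25). That value rested on single pre-iPS libraries, being -0.08 without passage 5 and -0.72 without passage 25. The Smarcc1 share, 69.8 ± 0.937%, and the Arid1a share, 82 ± 0.912%, lay between MEF and iPS (differences from iPS of -0.43 and -0.63, exact permutation p = 0.0357 for each, adjusted 0.0476). When the labels were permuted within each passage only, a test chosen after seeing the data, the 16 arrangements could not give an exact p below 0.0625, so these 3 calls were lost (0.0625 for each).

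The summed level of a pair per kilobase of longest transcript describes whether a change in share came with a change in total on that scale. For the ATPases the sum was 2930 and 3040 in MEF, 3530 and 3660 in pre-iPS and 2620 to 2880 in iPS, so both pre-iPS libraries stood above those of all other lines. For the Arid1 pair the order was different: 1320 and 1380 in MEF and 1340 and 1520 in pre-iPS, all below the 1530 to 2170 of iPS. The Smarcc pair summed to 3870 and 3970 in MEF, above the 2660 to 3320 of iPS, and to 2630 and 3060 in pre-iPS. The Smarcd pair summed to 955 and 1000 in MEF and 1020 and 1170 in pre-iPS, all below the 1230 to 1650 of iPS. These sums depend on the length taken for each gene, and the order of MEF and iPS for the ATPases rests on it. They are a description and were not tested.

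**Figure D3:**
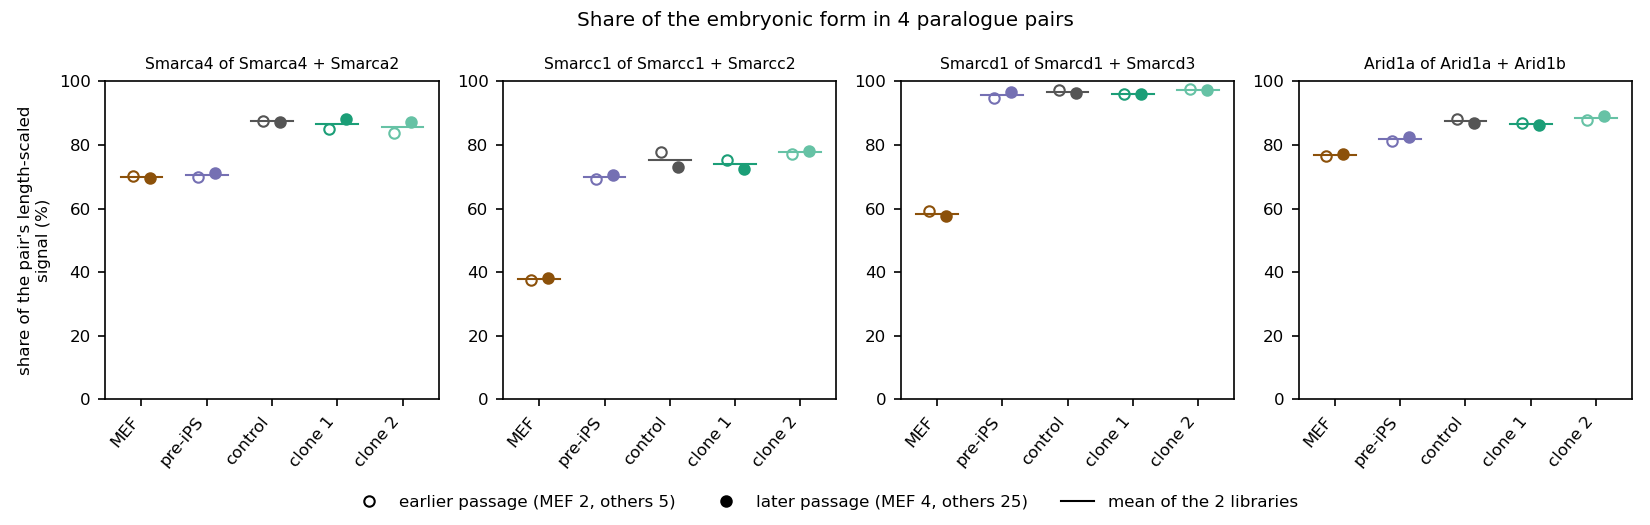
Share of the embryonic form in the summed per-kilobase signal of 4 paralogue pairs, in percent from 0 to 100 on the y axis, for each library of the 5 lines (open points earlier passage, filled points later passage, bars the mean of 2). The Smarcd1 share of pre-iPS (95.8%) sits with the iPS lines, whereas its Smarca4 share (70.6%) sits with MEF.

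Other subunits of BAF and of its PBAF and ncBAF relatives were taken from a list of 20, of which 19 were in the table and all 19 passed the filter; Actl6b, the neuronal alternative of Actl6a, was not listed. Against iPS, 8 of the 19 were higher in MEF and 7 lower, where 37.4% and 41.9% of all genes were, and 3 of the 19 differed at least 2-fold, where 48.2% of all genes did. The core subunit gene Smarcb1, present in every BAF and PBAF complex, had a log2 fold change of -0.07 in MEF (95% interval -0.26 to 0.13, adjusted p = 0.490), and Smarce1, the other core gene, was 1.37-fold higher (adjusted p = 0.000733), a call that was lost with quantile normalisation (log2 fold change 0.13, adjusted p = 0.187). Smarcd2, the SMARCD gene known from granulocytes, was at 3579 and 3650 in MEF, 5875 and 7061 in pre-iPS and 4249 to 6121 in iPS, so it was lower in MEF (log2 fold change -0.52, adjusted p = 0.00651).

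Among genes of the other assemblies, the PBAF genes did not move as a block. Arid2 was 1.38-fold lower in MEF (adjusted p = 0.000982), Phf10 was 1.32-fold higher (adjusted p = 0.00129), and Pbrm1 (log2 fold change 0.24, adjusted p = 0.0535) and Brd7 (-0.09, adjusted p = 0.219) missed the threshold. The ncBAF genes Brd9 and Gltscr1 (Bicra) were 1.42-fold and 1.89-fold higher in MEF (adjusted p = 0.000405 and 0.000118), while Gltscr1l (Bicral), the alternative of Gltscr1, was 1.42-fold lower (adjusted p = 0.00399). Ss18 was 1.22-fold lower and its neuronal alternative Ss18l1 1.42-fold higher (adjusted p = 0.00223 and 0.00417).

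In MEF 3 of these genes passed 2-fold. Bcl11b, a zinc finger subunit known from T cells and skin, was at 541 and 576 in MEF and at 51.2 to 149 in iPS (6.25-fold higher, adjusted p = 1.04e-05). Dpf1, the neuronal alternative of Dpf2, was at 208 and 219 in MEF and 269 to 870 in iPS (2.26-fold lower, adjusted p = 0.000185). The 6 neuron markers summed to 9986 to 10323 in MEF, with Rbfox3 at 0, and to 6043 to 18232 in iPS. Dpf3 was at the edge of detection, with 4.98 and 10.5 in MEF, 1.92 and 6.12 in pre-iPS and 17.7 to 47.5 in iPS. Its call in MEF (log2 fold change -1.81, adjusted p = 0.00363) was lost without MEF passage 2 (adjusted p = 0.0578) and with quantile normalisation (0.282), whereas in pre-iPS it was called lower (log2 fold change -2.67, adjusted p = 0.00154). In pre-iPS 3 of the 19 genes were called higher than in iPS and 1, Dpf3, lower, where 18.7% and 20.8% of all genes were. The 3 higher ones differed by small amounts: Ss18 (log2 fold change 0.30, adjusted p = 0.00586), Smarce1 (0.27, 0.0282) and Brd9 (0.25, 0.0416). Each of these calls was lost when pre-iPS passage 25 was left out (adjusted p = 0.0581, 0.0799 and 0.252), and those of Smarce1 and Brd9 also without pre-iPS passage 5 and without several other libraries.

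**Figure D4:**
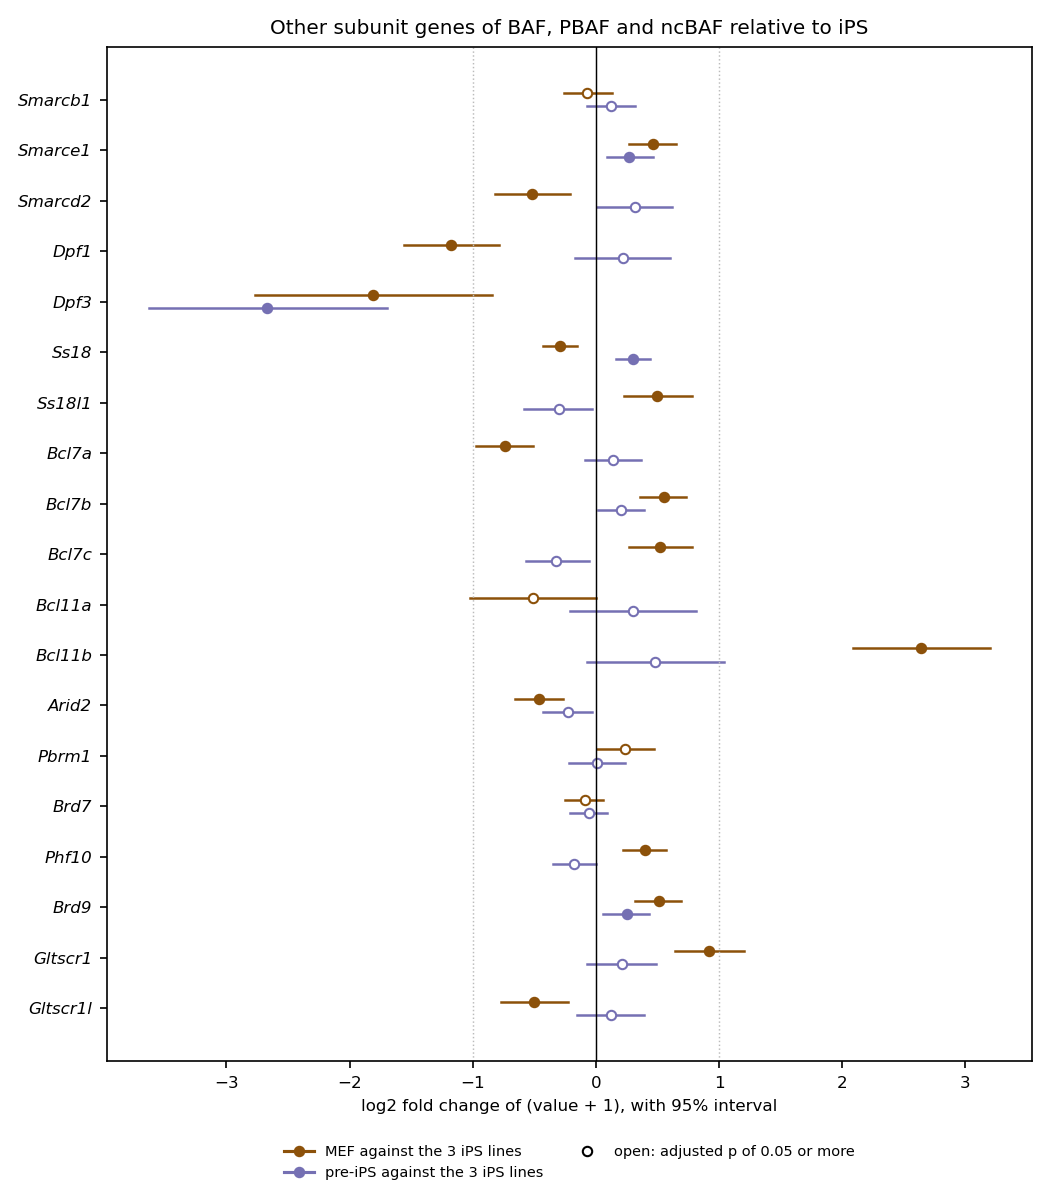
Log2 fold change of 19 other subunit genes of BAF, PBAF and ncBAF in MEF (brown) and pre-iPS (violet) against the 3 iPS lines on the x axis, with 95% intervals as lines. Filled points passed an adjusted p of 0.05 and dotted lines mark a 2-fold difference. Bcl11b (2.64) and Dpf3 (-1.81) lie farthest from 0 in MEF.

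ATPases of other remodelling families were taken as a second list, of 14 genes with 13 in the table (Srcap was not listed). In MEF 1 was higher and 10 lower than in iPS, where 37.4% and 41.9% of all genes were. In pre-iPS none was higher and 8 were lower, where 18.7% and 20.8% of all genes were. Chd7 was at 126 and 128 in MEF and 3970 to 5693 in iPS (log2 fold change -5.16, adjusted p = 5.6e-09). Hells, known for DNA methylation at repeats, was at 1492 and 1592 in MEF, 3194 and 3416 in pre-iPS and 5737 to 9846 in iPS (log2 fold change -2.34 in MEF, adjusted p = 1.67e-07, and -1.24 in pre-iPS, adjusted p = 6.36e-05). Chd1 was 2.08-fold lower in MEF (adjusted p = 9.1e-07). Smarca1, the ISWI alternative of Smarca5, was 2.54-fold higher in MEF (adjusted p = 0.00318) and 5.71-fold lower in pre-iPS (adjusted p = 0.000412), at 79.6 and 78.7 there.

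Within the iPS lines the question was whether these genes differed between the clones derived with recombinant Netrin-1 and the control line. With 1 control line, the treatment cannot be told apart from a difference between lines. None of the 10 members was called between the rNetrin-1-derived clones and the control line by limma, edgeR or DESeq2, where limma called 4.08% of all genes; 1 member had an unadjusted p under 0.05. The log2 fold changes ran from -0.25 to 0.18 around a median of -0.01. Smarca4 was at 15495 and 15173 in the control line and at 14197, 15803, 15417 and 15801 in the clones, with a 95% interval of the log2 fold change of -0.15 to 0.15. The interval for Smarcd3, the least abundant member, was wider, at -0.35 to 0.53.

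Arid1a came nearest to a call. It was at 13791 and 15419 in the control line and at 10902 and 12941 in clone 1 and 11966 and 13339 in clone 2, so every clone library was below both control libraries (log2 fold change -0.25, 95% interval -0.47 to -0.03, adjusted p = 0.221). With the passage as a block it was called lower (adjusted p = 0.0347), and a count of 1 member stood where the unblocked fit gave 0. Arid1b was at 2557 and 3199 in the control line and at 2289, 2816, 2309 and 2266 in the clones, which overlapped (log2 fold change -0.25, adjusted p = 0.298). Smarca2, at the other end, was at 2019 and 2033 in the control line and at 2338, 1974, 2753 and 2154 in the clones (log2 fold change 0.18, adjusted p = 0.451). Of the 19 other subunits 1 was called, Dpf1, at 269 and 315 in the control line and 535 to 870 in the clones (2.13-fold higher, adjusted p = 0.0152). Its call was lost without either control library (adjusted p = 0.0665 and 0.124) and in a fit of the iPS lines alone (0.0789). The 6 neuron markers summed to 6043 to 6815 in the control line, 11731 to 12099 in clone 1 and 14730 to 18232 in clone 2. Most of each sum was Stmn2 (3307 to 3505, 8307 to 9986 and 10893 to 12708). Snap25 was also higher in both clones, at low values, and Tubb3 and Syp were higher in clone 2 only. Map2 and Rbfox3 overlapped the control line in both clones. The part of these markers in the Dpf1 result was not tested.

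Clones 1 and 2 carried the same label. The study names a dose of recombinant Netrin-1 for its rNetrin-1-derived mouse clones in general, and none for each clone singly. None of the members was called between them by limma, edgeR or DESeq2, where limma called 1.59% of all genes and 2 members had an unadjusted p under 0.05. Those were Actl6a, at 5856 and 5044 in clone 1 and 7325 and 6700 in clone 2 (log2 fold change 0.37, 95% interval 0.10 to 0.63, adjusted p = 0.171), and Smarcd1, at 3900 and 4614 in clone 1 and 5083 and 5293 in clone 2 (0.29, 95% interval 0.05 to 0.53, adjusted p = 0.230). The median absolute log2 fold change of the members was 0.17 between the clones and 0.04 between the clones' mean and the control line, against 0.19 and 0.16 over all genes.

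Passage 25 was compared with passage 5 in the pre-iPS and iPS lines with the line as a block. Only Arid1a was called, where 10.9% of all genes were: it was higher at passage 25 in 4 of 4 lines, by log2 differences of 0.21 (pre-iPS), 0.16 (control), 0.25 (clone 1) and 0.16 (clone 2) (log2 fold change 0.19, SE 0.04, adjusted p = 0.0366). This call was lost without any 1 of the 8 libraries, in the 3 iPS lines alone (adjusted p = 0.134) and without the line block (0.815). Smarcc2 was higher at passage 25 in the same 4 lines, by 0.07 to 0.38 (log2 fold change 0.24, adjusted p = 0.0627), and was called by edgeR (adjusted p = 0.0436) and DESeq2 (0.017). Smarca2 was at 2338 and 1974 in clone 1 and 2753 and 2154 in clone 2 at passages 5 and 25, and at 2019 and 2033 in the control line, so the lower later values were in the clones (log2 fold change over the lines -0.15, adjusted p = 0.217). Among the other subunits Smarcd2 fell with passage (log2 fold change -0.31, adjusted p = 0.0148), a call that was lost without either library of clone 1 or of pre-iPS (adjusted p = 0.0599 to 0.0749).

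**Figure D5:**
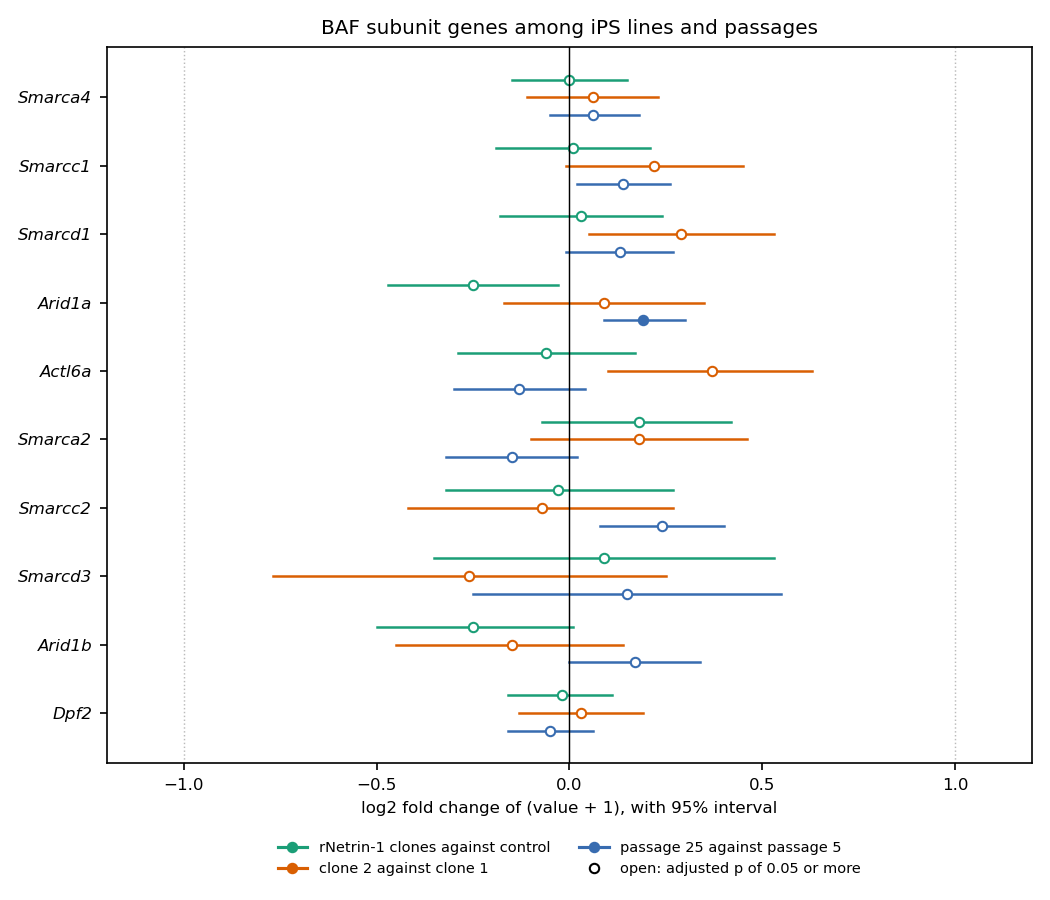
Log2 fold change of each BAF subunit gene, on the x axis with 95% intervals as lines, for the rNetrin-1-derived clones against the control line (green), clone 2 against clone 1 (orange) and passage 25 against passage 5 (blue). Every interval lies within a 2-fold difference, and Arid1a by passage (0.19) is the single filled point, which marks an adjusted p under 0.05.

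The genes whose pattern was most like that of a member were sought over the 10 libraries by Pearson's r on the log2 scale among 14042 genes, as a description in which the points share lines. For Smarcd3 they were Grin2d (r = 0.998), Rspo2 (0.997) and Pik3r2 (0.997), all high in MEF alone, as with Grin2d at 1448 to 1508 in MEF, 78.7 to 110 in pre-iPS and 78.3 to 121 in iPS. For Smarca2 they were Farp2 (r = 0.979), Stat5a (0.976) and Csnk1g1 (0.976), which were likewise shared by MEF and pre-iPS. Farp2 was at 1106 to 1153 in MEF, 935 to 1212 in pre-iPS and 116 to 210 in iPS. For Smarcc1 they were Zranb3 (r = 0.996), Snrnp200 (0.995) and Kntc1 (0.994), and Kntc1 was at 1300 to 1372 in MEF, 2031 to 3360 in pre-iPS and 2887 to 5084 in iPS. For Smarca4 they were Smg9 (r = 0.977), Sp2 (0.970) and Nf2 (0.963), with Nf2 at 5333 to 5493, 6614 to 7016 and 6122 to 6897. Over the 8 pre-iPS and iPS libraries alone, Zranb3 for Smarcc1 (r = 0.985) and Grin2d for Smarcd3 (0.896) were again among the 3 nearest genes, and those of Smarca4 and Smarca2 were other genes.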

How the data were processed

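Polyadenylated RNA of 10 libraries was sequenced as single reads in 1 lane with all libraries pooled. The submitters' processing notes name CASAVA 1.8.2, FastQC, TopHat2 2.0.8b, HTSeq 0.5.3p9, edgeR and the build mm10. The unit of the deposited table is a normalised signal: edgeR pseudo-counts, in which the authors brought read counts per gene to a common library size. Whole reads were recovered from the values for 99.957 to 100% of values per library (within 0.1 read), and 1 read was worth 0.8879 to 1.184.

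Groups came from the labels. Genes reaching 10 in 2 or more libraries were tested with limma 3.58.1 in R 4.3.3 on log2(value + 1), with a trend, 1 mean per line over all 10 libraries and Benjamini-Hochberg adjustment. Fold changes are on that scale and understate low genes. A gene changed at an adjusted p under 0.05. Passages were compared in the 4 derived lines (8 libraries), line being a block. Paralogue ratios were compared by exact permutation over libraries. edgeR 4.0.16 and DESeq2 1.42.0 on the recovered reads were alternatives, as were other pseudocounts, filters, scalings, samples and leaving out each library. Methods were tested on simulated data. Same-numbered passages of the 4 derived lines deviated together (r = 0.235 to 0.504 over 6 pairs of lines, mean 0.353), so passage pairs them, and blocked values are given where they change a call. MEF passages are other numbers.

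Lengths and positions were from GENCODE M21 and promoters from RefSeq, and 17637 of the 18901 symbols matched directly and 1042 through older names. Strand was not kept by the kit. All 10 members, the core, other-assembly and neuronal subunits of the list, any other listed subunit or ATPase at least 2-fold different in MEF or pre-iPS, and the 3 genes most like each of 4 members are named. The members and lists were chosen with earlier results of these data known.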

Additional observations from a re-analysis of the deposited data

Results flagged for a closer look

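Over the 10 members, the 6 libraries of the 3 iPS lines and the 4 libraries of the rNetrin-1-derived clones were searched for single libraries that stood apart by Dixon's ratio, in 20 groups in all, of which chance flags about 1. Arid1b had a value of 2816 in clone 1 at passage 25, where the nearest of the other 3 clone libraries had 2309. Dpf2 had a value of 5003 in clone 2 at passage 5, where the nearest of the others had 4802. No member differed between the clones past the threshold.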

How the results depend on the processing

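The members called in MEF against iPS stayed within 1.5 times their number under every alternative tried, with 8 to 9 without single libraries. In pre-iPS against MEF, 6 members were called (4 higher, 2 lower), with 9 with quantile normalisation (7 higher, 2 lower), 8 in a fit of only those lines and 5 to 7 without single libraries. Without single libraries the members called in pre-iPS against iPS numbered 2 to 5 and the genes 4152 to 7133, the lowest of each without pre-iPS passage 5. For rNetrin-1 against control, 697 genes were called, with 169 in a fit of only those lines, 1327 with the passage as a replicate block, 1367 by DESeq2 and 164 to 828 without single libraries, and the block gave 1 member. Clone 2 against clone 1 gave 271 genes, with 6, 623 and 1013 under the same alternatives and 17 to 502 without single libraries. For passage, 1869 genes were called, with 8 without the line block, 446 in the 3 iPS lines and 235 to 1684 without single libraries. There the members called were 0 in those fits and without any single library, 3 with quantile normalisation and 2 by edgeR with either scaling or DESeq2. The block changed no other call of a member than those of Smarcc1 and Smarcc2 in pre-iPS and Arid1a in the rNetrin-1 clones. With the labels permuted within passages (passage as a replicate block, chosen after seeing the data), the ratios of Smarca4 to Smarca2 (-1.43), Smarcc1 to Smarcc2 (-0.43) and Arid1a to Arid1b (-0.63) in pre-iPS had an exact permutation p of 0.0625 each, the smallest it allows. The ratio of Smarcd1 to Smarcd3 in pre-iPS ran from -0.72 to -0.08 without single libraries.

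The sign of 2 values changed, and the cause was not tested. The log2 fold change of Smarcd3 in pre-iPS against iPS was 0.19 with quantile normalisation, 0.17, 0.06, 0.01 and 0.01 without passage 25 of pre-iPS, the control line, clone 1 or clone 2, and -0.23 without pre-iPS passage 5. That of Dpf2 in pre-iPS against MEF was 0.18 with quantile normalisation (adjusted p = 0.0346) and 0.03 without pre-iPS passage 25. Each line had 2 libraries, which were passages of that line and not independently derived clones.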
